A study of Danio rerio with 11 samples.

Results

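The genes described here make cholesterol, bring it into the cell in low-density lipoprotein (LDL), or switch on those processes. They are 10 of the 35889 genes in the deposited count table, chosen by symbol: srebf2, hmgcs1, hmgcra, idi1, fdps, fdft1, sqlea, lss, cyp51 and ldlra. Each symbol matched 1 row, and all 10 passed the filter on low counts that left 19421 genes for testing. RNA-seq was done on fully grown follicles from the ovaries of zebrafish (Danio rerio) aged 180 days after fertilisation. Follicles over 650 µm were held back by a 600 µm filter, selected manually and used for libraries of poly-A RNA.

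The comparison is between 3 groups. Controls are represented by 3 libraries from fish with heterozygous genotypes at every locus in question (fshb+/-, lhb+/-, fshr+/- and lhcgr+/-). A set of 4 libraries, called lhb/lhcgr mutants, came from fish that were lhb-/- and lhcgr-/- and stayed fshb+/- and fshr+/-. The other 4 libraries, called fshb/lhcgr mutants, came from fish that were fshb-/- and lhcgr-/- and stayed lhb+/- and fshr+/-. No group was wild type, since every fish was at least heterozygous at all 4 loci, and fshr+/- was common to all. The genes fshb and lhb encode the hormone-specific subunits of follicle-stimulating hormone and luteinising hormone, and fshr and lhcgr encode their receptors. A follicle of this stage is an oocyte wrapped in granulosa and theca cells, so in these bulk libraries fewer cells of a type and less RNA per cell cannot be told apart. The labels do not say that replicates are separate fish, so p-values measure the spread between these libraries, which may be partly technical.

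In vertebrate cells, cholesterol supply is set by a transcription factor, SREBP2 (encoded by srebf2), which is held in the endoplasmic reticulum as an inactive precursor. When sterols run low, SCAP escorts it to the Golgi, where proteases release its active part. In mammals that part switches on the enzymes of the mevalonate and sterol pathway, the LDL receptor and srebf2 itself. In the ovary, cholesterol is a membrane component and the starting material of all steroid hormones, and follicle cells can draw on synthesis, lipoprotein uptake and stored esters.

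Library totals ran from 14179252 to 25484718 counts, and lhb/lhcgr mutant 3 was the deepest. Oocyte markers were abundant in every library, with the 9 markers summing to between 2935 and 4846 CPM (counts relative to the library total, scaled with TMM factors). Of the mutated genes, lhb had 294 to 537 counts in controls, 10 to 160 in lhb/lhcgr mutants and 25 to 97 in fshb/lhcgr mutants, although the last are heterozygous for it like the controls. Messenger RNA of lhcgr remained in all libraries, at 148 CPM on average in the lhb/lhcgr mutants against 197 in the controls. The controls had 153, 336 and 104 CPM. They overlapped the lhb/lhcgr mutants, at 115 to 188 CPM, and the fshb/lhcgr mutants, at 102 to 171 CPM. For fshb there were at most 11 counts in any library. None of these genes therefore checked the labels. The libraries lhb/lhcgr mutant 3 and 4 were the closest pair of replicates, though still apart by 23.7 times the variance of sampling alone.

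Levels of different genes were compared per length, with the authors' FPKM (fragments scaled to gene length and library size). In the controls hmgcs1, which makes HMG-CoA from acetyl units, was the most abundant of the 10 genes at 31.5 ± 5.35 FPKM (SD, n = 3), higher than 85.5% of the genes tested. The isoprenoid enzymes fdps (17.8 FPKM) and idi1 (16.9 FPKM) and the regulator srebf2 (16.5 FPKM) followed. The LDL receptor gene ldlra was at 6.32 FPKM. The enzymes that commit to and shape the sterol ring were lower, at 4.79 FPKM for fdft1, 3.78 for cyp51, 2.33 for sqlea and 2.07 for lss. Lowest was hmgcra at 0.784 ± 0.0497 FPKM, above 20.1% of the genes tested. Only 3 steps of this order had control ranges that did not overlap: hmgcs1 above fdps, srebf2 above ldlra, and lss above hmgcra.

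**Figure D1:**
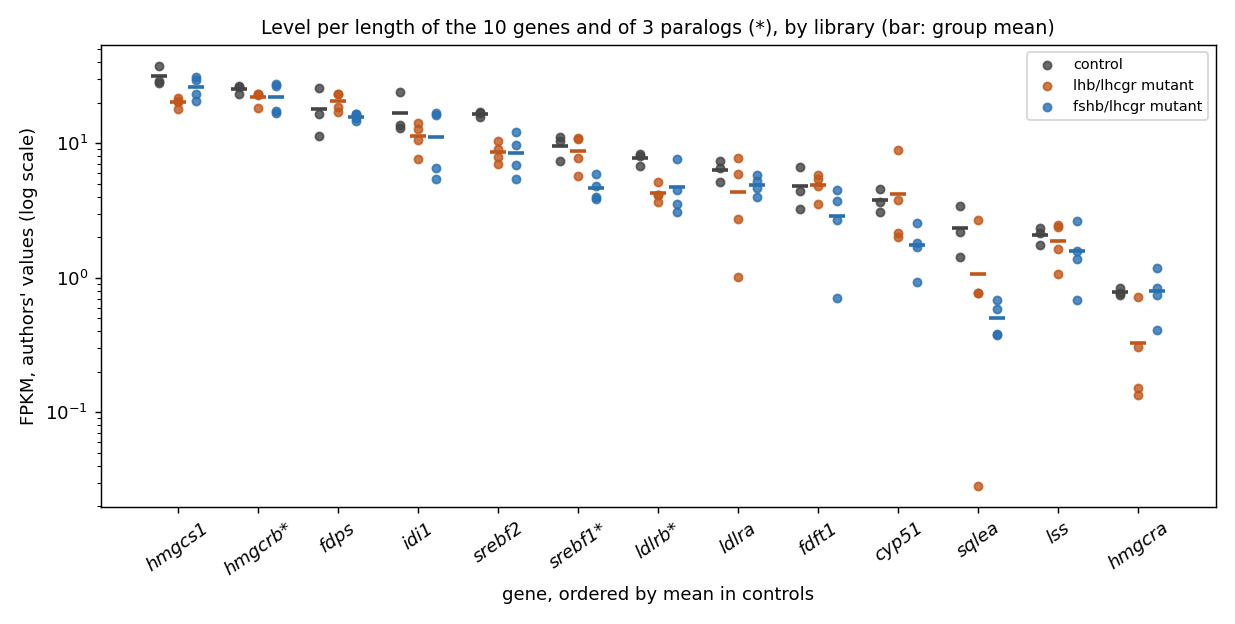
Level per length in authors' FPKM on a log axis, for the 10 genes and 3 paralogs marked with an asterisk, ordered by control mean. Points are libraries and bars are group means. The controls run from 31.5 FPKM for hmgcs1 down to 0.784 FPKM for hmgcra, while the paralog hmgcrb stands at 25.3 FPKM.

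Several of these genes have a second copy in zebrafish, and the copies were not equally used. HMG-CoA reductase, the rate-limiting enzyme of the pathway and the target of statins, was represented mainly by hmgcrb, at 25.3 ± 1.94 FPKM in the controls. The share of hmgcra in the summed FPKM of both copies was 2.71%, 3.11% and 3.24% in the controls. Corresponding shares in the lhb/lhcgr mutants were 0.666%, 1.30%, 0.579% and 3.78%, and the fshb/lhcgr mutants had 4.08%, 4.81%, 4.12% and 1.52%. Thus hmgcra was the minor copy in all 11 libraries. The receptor copies were more even, with ldlra making up 43.2% to 47.8% of the summed ldlra and ldlrb FPKM in the controls, 19.6% to 60.0% in the lhb/lhcgr mutants and 34.5% to 62.7% in the fshb/lhcgr mutants. The related factor srebf1 is a separate gene and not a second copy of srebf2. Of their summed FPKM, srebf2 made up 60.6% to 68.1% in the controls. Its share was 39.5% to 64.2% in the lhb/lhcgr mutants and 57.9% to 67.1% in the fshb/lhcgr mutants. Reads of near-identical copies may have been divided in ways these files do not show, which makes the split between copies uncertain.

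The question of the design is what loss of lhcgr together with either hormone subunit does to the follicle. Between lhb/lhcgr mutants and controls, srebf2 and hmgcs1 were lower, and the other 8 genes did not pass the test. Across all genes, 4.45% were called lower and 7.34% were called in either direction (edgeR quasi-likelihood test, Benjamini-Hochberg adjusted p under 0.05 over all genes tested). The 2 lower calls are a larger share of the 10 genes than of all genes, but they are few and the list itself was not tested. Between fshb/lhcgr mutants and controls none of the 10 was called, in a comparison that called 0.0721% of all genes. Between the mutants none was called either, against 2.37% of all genes. In each of the 3 comparisons 3 of the 10 genes had an unadjusted p under 0.05, as did 4829, 2291 and 3502 of the 19421 genes tested, in the same order.

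The regulator srebf2 (ENSDARG00000063438) was the member with the tightest control values. It stood at 75.5, 74.9 and 70.7 CPM in the controls, at 39.8, 46.1, 31.5 and 35.05 CPM in the lhb/lhcgr mutants and at 43.9, 24.2, 30.3 and 54.0 CPM in the fshb/lhcgr mutants. All 8 mutant libraries lay below all 3 controls. The mean fell from 73.7 ± 2.64 to 38.1 ± 6.32 CPM in the lhb/lhcgr mutants, which is 51.7% of the control level (log2 difference -0.95, SE 0.24, edgeR adjusted p = 0.0319). This call was close to the threshold. It was lost when any of the 3 controls or lhb/lhcgr mutant 1, 3 or 4 was left out, with adjusted p up to 0.0950, while the log2 difference stayed between -1.06 and -0.87. It was also lost without both lhb/lhcgr mutant 3 and 4 (adjusted p = 0.203), with scaling by library size only (0.0550) and with a correction for gene length (0.0810). The mean of the fshb/lhcgr mutants was the same at 38.1 ± 13.4 CPM (log2 difference -0.95, SE 0.24), but its adjusted p of 0.199 did not pass edgeR's threshold. DESeq2 gave an adjusted p of 0.0316 for that difference, in a fit that called 1.43% of all genes. Between the mutants the log2 difference was 0.00, with a 95% interval of -0.48 to 0.48. Both contrasts with the controls use the same 3 control libraries and share 1 estimate of the spread. With log2 difference and SE alike, their edgeR adjusted p-values differ mainly through the adjustment over all genes. In edgeR the contrast of the lhb/lhcgr mutants called 1426 of all genes and that of the fshb/lhcgr mutants 14.

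In the authors' deposited table srebf2 had log2 fold changes of -0.96 (unadjusted p = 6.27e-06) for the lhb/lhcgr mutants and -0.95 (unadjusted p = 0.00113) for the fshb/lhcgr mutants. These lie within 0.01 of the values fitted here.

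**Figure D2:**
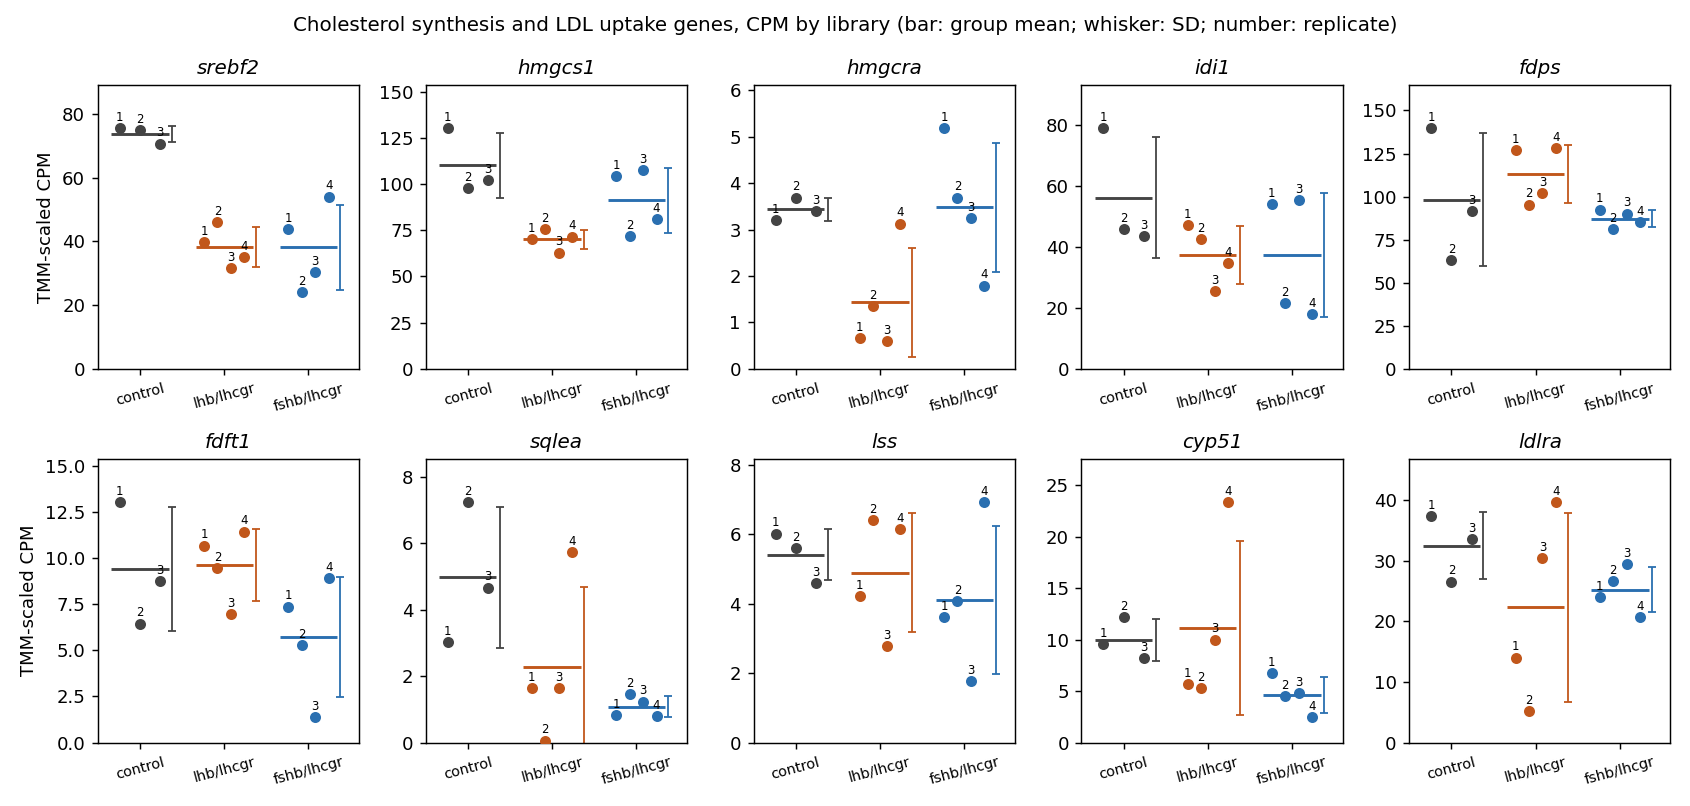
TMM-scaled CPM of each gene by library, with the replicate number at each point, a bar for the group mean and a whisker for the SD (lower ends are clipped at 0). For srebf2 the controls lie at 70.7 to 75.5 CPM and all 8 mutant libraries at 54.0 CPM or below. For hmgcra, fdps, fdft1, sqlea, cyp51 and ldlra the values of lhb/lhcgr mutant 4 stand highest in their group.

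The entry enzymes of the mevalonate pathway differed from each other. For hmgcs1 (ENSDARG00000103025), which supplies the substrate of HMG-CoA reductase, the controls had 130.2, 97.8 and 102 CPM. The lhb/lhcgr mutants had 70.0, 75.6, 62.9 and 71.6 CPM, all below the controls, and the fshb/lhcgr mutants had 104, 71.8, 108 and 81.2 CPM, which overlapped both other groups. The mean fell from 110.1 ± 17.6 to 70.0 ± 5.30 CPM in the lhb/lhcgr mutants (log2 difference -0.65, SE 0.17, edgeR adjusted p = 0.0377). The call was lost without control 1 or 3 or without any of the 4 mutant libraries, and the highest adjusted p was 0.143, without control 1. Library size only (adjusted p = 0.0634), a length correction (0.0953) and leaving out both lhb/lhcgr mutant 3 and 4 (0.201) ended it as well. In the fshb/lhcgr mutants the mean was 91.2 ± 17.5 CPM (log2 difference -0.27, SE 0.17, adjusted p = 0.570 in edgeR). The direct difference between the mutants was 0.38 on the log2 scale (95% interval 0.03 to 0.73) with an adjusted p of 0.23, so hmgcs1 was not shown to differ between them.

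The minor reductase copy hmgcra (ENSDARG00000052734) was counted 48, 52 and 54 times in control libraries. Among lhb/lhcgr mutants its counts were 11, 22, 16 and 52, and among fshb/lhcgr mutants they were 76, 56, 42 and 29. After scaling, the controls lay at 3.21 to 3.69 CPM and the lhb/lhcgr mutants at 0.594 to 3.13 CPM, so these groups did not overlap, though lhb/lhcgr mutant 4 came close. The log2 difference was -1.27 (SE 0.56) and did not pass the threshold (edgeR adjusted p = 0.179). Without lhb/lhcgr mutant 4 it was -1.99 and still did not pass (edgeR adjusted p = 0.0704). The fshb/lhcgr mutants had a mean near that of the controls (log2 difference 0.02, 95% interval -1.18 to 1.21), with values on both sides of the controls. The major copy hmgcrb had 88.0 ± 6.22 CPM in the controls, 76.1 ± 8.52 in the lhb/lhcgr mutants and 76.9 ± 20.7 in the fshb/lhcgr mutants. Neither mutant group passed the test for hmgcrb (edgeR adjusted p = 0.560 and 0.747).

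The isoprenoid steps showed wide spreads. For idi1 (ENSDARG00000019976), which isomerises the activated isoprene unit, the values were 78.9, 45.8 and 43.5 CPM in the controls and 47.1, 42.6, 25.5 and 34.7 CPM in the lhb/lhcgr mutants. In the fshb/lhcgr mutants they split into a higher pair, 54.1 and 55.4 CPM in replicates 1 and 3, and a lower pair, 21.6 and 18.1 CPM in replicates 2 and 4. All groups overlapped, and the log2 differences from the controls were -0.58 and -0.59 (edgeR adjusted p = 0.392 and 0.590). The next enzyme, fdps (ENSDARG00000040890), joins isoprene units into farnesyl diphosphate. It had 139.7, 63.1 and 91.8 CPM in the controls, 127, 95.3, 102 and 128 CPM in the lhb/lhcgr mutants and 92.5, 81.2, 90.1 and 85.2 CPM in the fshb/lhcgr mutants. The control range spanned both mutant groups. All fshb/lhcgr mutants lay below all lhb/lhcgr mutants, at a log2 difference of -0.37 (SE 0.20, edgeR adjusted p = 0.360).

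Farnesyl diphosphate is turned into squalene by the product of fdft1 (ENSDARG00000101062), the first step committed to sterols. Its values were 13.1, 6.46 and 8.76 CPM in the controls, 10.7, 9.48, 6.98 and 11.4 CPM in the lhb/lhcgr mutants and 7.37, 5.27, 1.39 and 8.91 CPM in the fshb/lhcgr mutants. The groups overlapped throughout, and fshb/lhcgr mutant 3 was the lowest library, with 18 counts. Log2 differences from the controls were 0.03 (95% interval -0.97 to 1.03) for the lhb/lhcgr mutants and -0.71 (95% interval -1.71 to 0.29) for the fshb/lhcgr mutants.

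Squalene epoxidase, encoded by sqlea (ENSDARG00000079946), catalyses a rate-limiting oxygenation before ring closure. Control libraries held 45, 102 and 74 counts of it. The lhb/lhcgr mutants held 27, 1, 44 and 95 counts, and the fshb/lhcgr mutants 12, 22, 16 and 13. The fshb/lhcgr mutants, at 0.805 to 1.45 CPM, all lay below the controls, at 3.01 to 7.24 CPM. The lhb/lhcgr mutants ran from 0.0611 CPM in replicate 2 to 5.72 CPM in replicate 4 and overlapped both groups. The log2 difference of the fshb/lhcgr mutants from the controls was -2.20 (SE 0.82), the largest in size among the 10 genes in any comparison, and it did not pass edgeR's threshold (adjusted p = 0.337). In the authors' deposited table the same difference was -2.21 with an unadjusted p of 2.99e-05. That p is not adjusted over all genes, unlike edgeR's above. The DESeq2 fit made here, adjusted over all genes, did not call sqlea in this comparison. It did call srebf2, although the deposited unadjusted p of srebf2 was larger, at 0.00113. Why the fits differ on sqlea was not tested. For the lhb/lhcgr mutants the log2 difference was -1.14 (SE 0.79, edgeR adjusted p = 0.410), and it ran from -2.14 without lhb/lhcgr mutant 4 to -0.73 without lhb/lhcgr mutant 2.

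Ring closure by lanosterol synthase, encoded by lss (ENSDARG00000061274), showed no separation. Its values were 6.02, 5.61 and 4.60 CPM in the controls, 4.23, 6.42, 2.79 and 6.14 CPM in the lhb/lhcgr mutants and 3.62, 4.09, 1.77 and 6.93 CPM in the fshb/lhcgr mutants. Log2 differences from the controls were -0.15 (95% interval -1.08 to 0.79) and -0.39 (95% interval -1.33 to 0.54), wide enough to hold differences in either direction that could not be detected with these libraries.

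The lanosterol demethylase gene cyp51 (ENSDARG00000042641) had 9.57, 12.2 and 8.19 CPM in the controls. The fshb/lhcgr mutants had 6.76, 4.48, 4.78 and 2.48 CPM, all below the controls, at a log2 difference of -1.11 (SE 0.48, edgeR adjusted p = 0.397). The lhb/lhcgr mutants had 5.67, 5.32 and 9.99 CPM in replicates 1 to 3 and 23.4 CPM in replicate 4. Their log2 difference of 0.15 from the controls (adjusted p = 0.890) rested on that library, and without lhb/lhcgr mutant 4 it was -0.51. Between the mutants the log2 difference was -1.26 (SE 0.46, edgeR adjusted p = 0.162), and without lhb/lhcgr mutant 4 it was -0.60. In the authors' deposited table the fshb/lhcgr mutants differed from the controls by -1.11 for cyp51 (unadjusted p = 0.00485). The DESeq2 fit made here, adjusted over all genes, did not call cyp51 in this comparison.

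The LDL receptor, encoded by ldlra (ENSDARG00000029476), binds the lipoprotein at the surface and carries it into the cell. Controls had 37.3, 26.5 and 33.6 CPM. The lhb/lhcgr mutants spread from 14.0 and 5.20 CPM in replicates 1 and 2 to 30.4 and 39.7 CPM in replicates 3 and 4. The fshb/lhcgr mutants were tight, at 24.0, 26.7, 29.4 and 20.7 CPM, and overlapped the controls. Log2 differences were -0.54 (SE 0.48, edgeR adjusted p = 0.536) for the lhb/lhcgr mutants and -0.37 (SE 0.48, adjusted p = 0.813) for the fshb/lhcgr mutants. The difference of the lhb/lhcgr mutants ran from -0.97 without replicate 4 to -0.21 without replicate 2, and was -1.76 without both lhb/lhcgr mutant 3 and 4 (edgeR adjusted p = 0.0598). Summed macrophage and neutrophil markers split these libraries in the same way, at 14.5 and 19.1 CPM in replicates 1 and 2 and 72.4 and 68.2 CPM in replicates 3 and 4. Summed liver markers did so too, at 1.15 and 0.672 CPM in replicates 1 and 2 and 10.6 and 10.96 CPM in replicates 3 and 4. Most of the liver sum in replicates 3 and 4 was 1 gene, tfa, at 7.80 and 9.21 CPM, while fabp10a and apoa2 were at 0 in every library. Within the macrophage and neutrophil set, lyz did not split this way, at 0.483, 1.41, 0.334 and 0.662 CPM in replicates 1 to 4. In the controls the macrophage and neutrophil sums were 8.90, 34.6 and 27.5 CPM, opposite in order to ldlra. The fshb/lhcgr mutants had sums of 15.7, 38.3, 35.2 and 37.0 CPM, also in a different order from ldlra. Liver sums were 3.21, 3.05 and 1.89 CPM in the controls. They were 2.39, 8.83, 3.86 and 8.30 CPM in the fshb/lhcgr mutants. The part of either set in the ldlra values was not tested. The second receptor copy, ldlrb, named after its values were seen, was lower in all 4 lhb/lhcgr mutants (11.4 to 16.1 CPM) than in the controls (21.3 to 26.3 CPM), with a log2 difference of -0.85 that did not pass (edgeR adjusted p = 0.0850). In that comparison 22.8% of all genes did not overlap. By FPKM, ldlrb was also below the control range in replicates 1, 2 and 3 of the fshb/lhcgr mutants and within it in replicate 4.

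**Figure D3:**
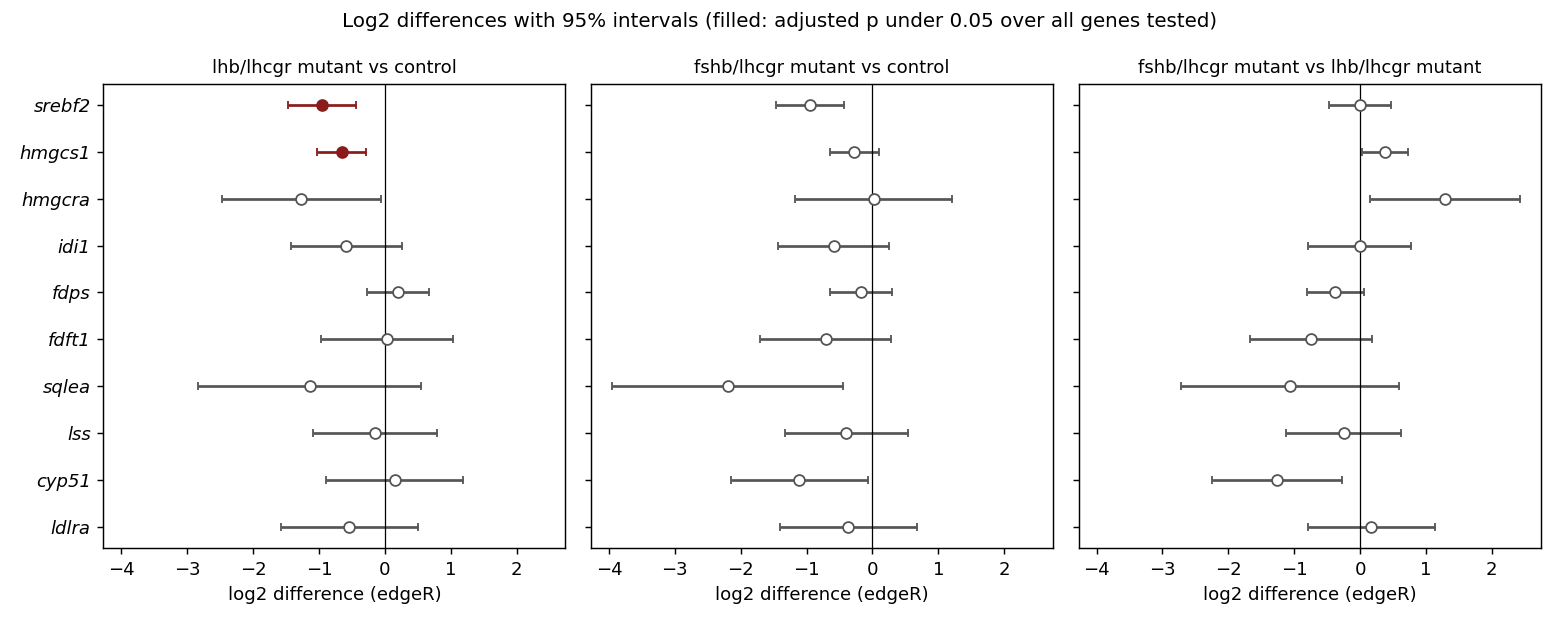
Log2 differences of the 10 genes in each comparison with 95% intervals from edgeR, filled where the adjusted p over all genes is under 0.05. Filled points are srebf2 at -0.95 and hmgcs1 at -0.65 in the lhb/lhcgr mutants. The srebf2 point of the fshb/lhcgr mutants lies at the same -0.95 and is open.

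Set side by side, 7 of the 10 genes had a negative log2 difference in the lhb/lhcgr mutants and 9 of 10 in the fshb/lhcgr mutants. Of all genes, 49.3% and 52.5% were negative in the same comparisons. The median of the 10 was -0.56 and -0.49, beside 0.01 and -0.03 for all genes. Without control 1 the medians were -0.34 and -0.28. The 2 sets of differences share their controls. Groups that did not overlap were seen for 3 genes in the lhb/lhcgr mutants (srebf2, hmgcs1 and hmgcra, all lower), where 22.8% of all genes did not overlap. They were seen for 3 genes in the fshb/lhcgr mutants (srebf2, sqlea and cyp51, all lower), where 10.4% of all genes did not. Between the mutants 1 gene, fdps, did not overlap, against 12.9% of all genes, and 6 of the 10 differences were negative with a median of -0.13.

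The members differed in how closely they followed each other from library to library. The Pearson correlation of each gene's log2 CPM with the mean of the other 9 members over the 11 libraries ran from 0.172 for fdps to 0.561 for srebf2. These libraries share depth scaling and group, and the values are a description, with no other gene sets for reference. When log2 CPM was standardised per gene and averaged over the 10, the controls stood at 1.03, 0.387 and 0.465. The lhb/lhcgr mutants stood at -0.209, -0.509, -0.505 and 0.553, and the fshb/lhcgr mutants at 0.129, -0.526, -0.456 and -0.363. Replicate 4 of the lhb/lhcgr mutants thus lay within the control range and the other 7 mutant libraries below it.

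**Figure D4:**
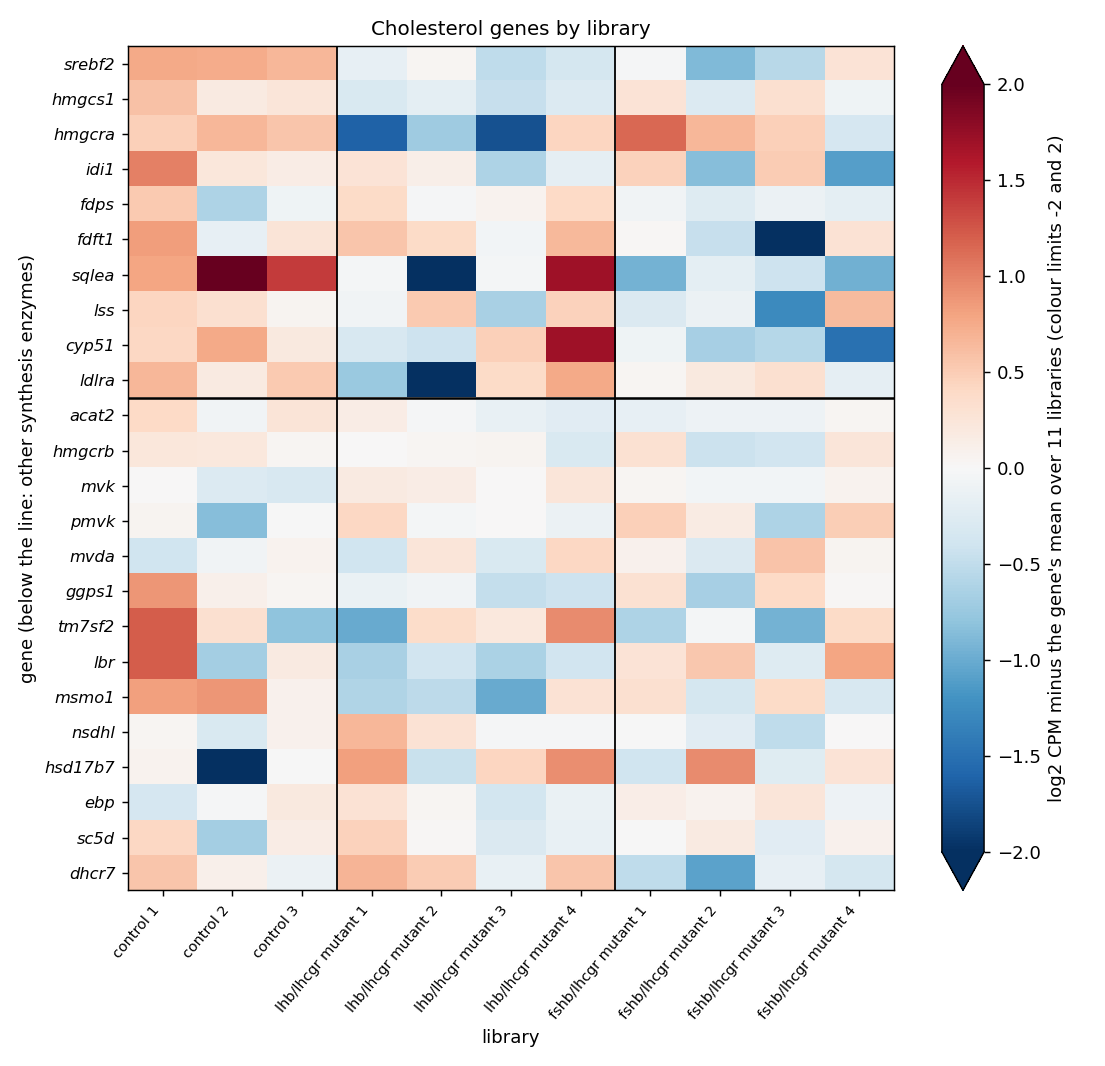
Log2 CPM of each gene minus its mean over the 11 libraries, by library, for the 10 genes (above the line) and 14 other synthesis enzymes (below it). Colours saturate at -2 and 2. Of the 10 genes, all but fdps and fdft1 are above their mean in all 3 controls, and sqlea, cyp51 and ldlra are high in lhb/lhcgr mutant 4.

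By that averaged profile, the genes outside the 10 most like them over the 11 libraries were ep300a (Pearson r 0.857, Spearman rho 0.873), atg9b (0.839 and 0.845), acot11b (0.830 and 0.782), l3mbtl1b (0.83 and 0.791) and dyrk1b (0.818 and 0.809). Without the 2 libraries farthest from the median of the profile, Pearson r for these genes was between 0.678 for acot11b and 0.889 for l3mbtl1b. Of 53 other cholesterol genes tested, 2 were in the top 1% of the 19411 genes ranked. These were scap (r 0.789), which encodes the SREBP escort, and msmo1 (r 0.750), a sterol demethylation enzyme downstream of cyp51.

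The rest of the pathway was read from 4 lists. Of all genes, 7.34% were called in the lhb/lhcgr mutants, 0.0721% in the fshb/lhcgr mutants and 2.37% between the mutants. Other cholesterol synthesis enzymes had no call in any comparison among the 14 of 18 symbols that had a row. Their median log2 differences were 0.01 in the lhb/lhcgr mutants, -0.09 in the fshb/lhcgr mutants and -0.0038 between the mutants, next to 0.01, -0.03 and -0.02 for all genes. The extremes of the list in the lhb/lhcgr mutants were msmo1 at -1.03 and hsd17b7 at 1.03. For hsd17b7, control 2 lay at -2.34 from the gene's mean log2 CPM. Controls 1 and 3 lay at 0.064 and -0.015, within the lhb/lhcgr mutant range of -0.45 to 0.92.

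Genes of SREBP processing and sterol sensing were tested for 11 of 12 symbols, and none was called in any comparison. The shares of all genes called were 7.34%, 0.0721% and 2.37% in the order above. In the lhb/lhcgr mutants 10 of the 11 differences were negative with a median of -0.13, and in the fshb/lhcgr mutants 8 were negative with a median of -0.29. Groups did not overlap for 2 of the 11 genes in the lhb/lhcgr mutants, where 22.8% of all genes did not. In the fshb/lhcgr mutants this held for 5 of the 11, where 10.4% of all genes did not overlap. Named after its values were seen, scap (ENSDARG00000018096) had 23.4, 24.1 and 20.1 CPM in the controls. It had 12.1, 9.35, 16.6 and 15.9 CPM in the lhb/lhcgr mutants and 11.3, 10.3, 8.80 and 11.4 CPM in the fshb/lhcgr mutants. Every mutant library was below every control, yet the log2 differences of -0.74 (SE 0.24, edgeR adjusted p = 0.0765) and -1.10 (SE 0.24, adjusted p = 0.133) missed the threshold. The sister factor srebf1, known in mammals for fatty acid synthesis and also named after its values were seen, was 10.96 to 17.1 CPM in the fshb/lhcgr mutants and 21.3 to 31.6 CPM in the controls, which did not overlap (log2 difference -1.05, edgeR adjusted p = 0.199).

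Genes of lipoprotein uptake, lysosomal release and intracellular transfer had 1 lower call among 22 tested in the lhb/lhcgr mutants and none in the other comparisons. That is about the share of all genes called lower in the lhb/lhcgr mutants (4.45%). Median log2 differences were -0.18 in the lhb/lhcgr mutants, -0.27 in the fshb/lhcgr mutants and 0.02 between the mutants. The called gene was mylipa, whose mammalian counterpart MYLIP (IDOL) is a ubiquitin ligase that marks the LDL receptor for degradation. For mylipa (ENSDARG00000008859) the controls had 596, 201 and 369 CPM, the lhb/lhcgr mutants 180, 160, 114 and 172 CPM and the fshb/lhcgr mutants 304, 263, 380 and 344 CPM. All lhb/lhcgr mutants were below both other groups. The mean fell by 1.31 on the log2 scale from the controls (SE 0.29, edgeR adjusted p = 0.0189), and leaving out control 1 (-0.87, adjusted p = 0.0786) or lhb/lhcgr mutant 4 ended the call. So did leaving out both lhb/lhcgr mutant 3 and 4 (-1.19, adjusted p = 0.125).

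Of 6 esterification and efflux genes tested, 1 was called, lower in the lhb/lhcgr mutants, where 4.45% of all genes were called lower. It had the largest difference of the cholesterol genes called. The acyltransferase gene soat1 (ENSDARG00000062297), which stores cholesterol as esters, had 102, 134 and 69.3 CPM in the controls, 12.9, 46.6, 24.3 and 19.1 CPM in the lhb/lhcgr mutants and 50.8, 48.8, 69.1 and 54.5 CPM in the fshb/lhcgr mutants. The 3 groups did not overlap, with the fshb/lhcgr mutants in between. The mean fell from 102 ± 32.2 to 25.7 ± 14.7 CPM in the lhb/lhcgr mutants, to 25.2% of the controls (log2 difference -1.99, SE 0.36, edgeR adjusted p = 0.0101), and this call held in all 11 fits that left out 1 library but not without both lhb/lhcgr mutant 3 and 4 (adjusted p = 0.0987). The fshb/lhcgr mutants differed from the controls by -0.87 (adjusted p = 0.374 in edgeR) and from the lhb/lhcgr mutants by 1.12 (adjusted p = 0.1003), neither past the threshold. Median log2 differences of the list were -0.29, -0.20 and 0.32 in the order of comparisons used above.

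**Figure D5:**
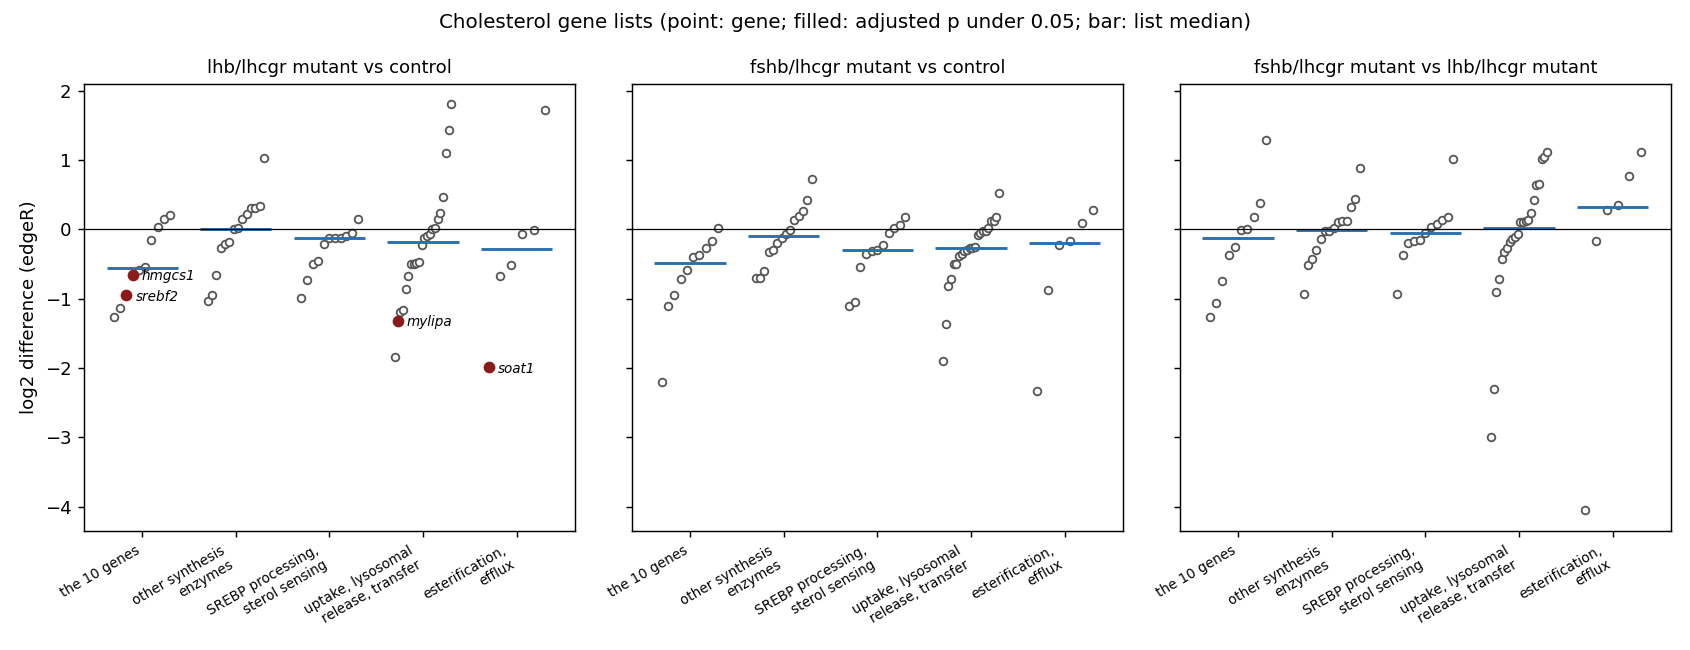
Log2 differences of the tested genes of the 5 cholesterol lists in each comparison (points), filled and named where the adjusted p is under 0.05, with a bar at each list's median. All 4 filled points, soat1, mylipa, srebf2 and hmgcs1, are lower in the lhb/lhcgr mutants than in the controls.

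Some markers of cells in the follicle were also called between the lhb/lhcgr mutants and the controls. In that comparison 7.34% of all genes were called in either direction and 4.45% were called lower. The marker lists are short and were not tested as lists. In the lhb/lhcgr mutants 2 of 5 endothelial markers were lower, kdrl at -1.51 on the log2 scale (edgeR adjusted p = 0.00518) and flt1 at -1.79 (adjusted p = 0.0126). The 5 together summed to 63.7 to 68.3 CPM, against 110.2 to 195 CPM in the controls and 90.9 to 178 CPM in the fshb/lhcgr mutants. The largest part of the control sums was kdrl, at 52.3 to 95.7 CPM. Of the 5, 4 had negative log2 differences in the lhb/lhcgr mutants and 1, tie1, was positive at 0.50. For pecam1 all lhb/lhcgr mutants lay within the control range. Of 5 theca markers, 1 was lower, star, which passes cholesterol to the mitochondrion for steroid synthesis (-1.67, adjusted p = 0.0309 in edgeR), while the summed theca markers overlapped (636 to 765 CPM in the lhb/lhcgr mutants, 580 to 895 CPM in the controls). Of 8 granulosa markers, 1 was higher, fshr (1.91, edgeR adjusted p = 0.0220), and their sums also overlapped (278 to 457 against 243 to 594 CPM). No oocyte, macrophage and neutrophil, erythrocyte or liver marker was called in the comparison (0 of 9, 6, 6 and 3 tested). Summed erythrocyte markers were 27.3 to 82.5 CPM in the controls, 63.2 to 136 CPM in the lhb/lhcgr mutants and 94.7 to 175 CPM in the fshb/lhcgr mutants. Summed macrophage and neutrophil markers were 8.90 to 34.6, 14.5 to 72.4 and 15.7 to 38.3 CPM in the same order. Summed liver markers were at most 10.96 CPM in any library, with 2 of the 6 rows at 0 everywhere. The part of these cells in the values of srebf2, hmgcs1, mylipa and soat1 was not tested.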

How the data were processed

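The authors deposited raw counts per gene, FPKM values that divide each gene by 1 fixed length, and tables of both mutants against the controls with mean expression (a normalised signal, per the file headers), log2 fold changes and unadjusted p-values. DESeq2 1.20.0 is named per the submitters' processing notes. Aligner, counting tool, strand use, annotation and genome build: not given in the sources used here. Hence no coordinates or sequences are printed.

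Counts were tested by edgeR 4.0.16 (R 4.3.3). Of 35889 genes, 19421 passed filterByExpr (minimum count 10, minimum total 15). Libraries were scaled with TMM factors, and a robust quasi-likelihood fit estimated 3 group means from all 11 libraries. Tests were 2-sided, with Benjamini-Hochberg adjustment across every gene tested and a call at an adjusted p under 0.05. The common biological coefficient of variation was 0.384. Values are mean ± SD over libraries. The fit was checked on simulated data. No column of other samples was left out (0 columns).

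Groups and replicate numbers came from the sample labels. Library totals set the counting precision, which is poor for hmgcra, sqlea and lss, and for fdft1 in fshb/lhcgr mutant 3 (18 counts).

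The 10 genes and the lists were chosen with earlier results of these data known. By rule, genes named were the 10, each gene of the 4 other cholesterol lists called in any comparison, the targeted genes with fshr, and the 5 genes with the most similar profile (at least 5 CPM in a group mean). Other list genes and paralogs given values, and the called markers, were named after their values were seen. Some genes of the lists are not reported here. Alternatives were RLE, upper-quartile and library-size scaling, no filter, limma-voom (limma 3.58.1), DESeq2 1.42.0, a stricter filter (1 CPM in 3 libraries), a fit of just the pair compared, a block for replicate number, a length correction, and leaving out libraries.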

Additional observations from a re-analysis of the deposited data

How the results depend on the processing

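Of the single-gene log2 differences refitted under the alternatives, 718 kept direction and side of the threshold, 24 lost the threshold, 7 gained it and 43 changed sign. Most of the 718 were differences not called in the main fit. All 24 losses fell on the calls of srebf2, hmgcs1, mylipa and soat1 in the lhb/lhcgr mutants. Of the 11 fits that left out 1 library, srebf2 and hmgcs1 were each called in 5, mylipa in 9 and soat1 in 11. These include 4 fits that left out an fshb/lhcgr mutant, which is not in the comparison, and all 4 kept srebf2 and hmgcs1. Apart from those, srebf2 was called only without lhb/lhcgr mutant 2 and hmgcs1 only without control 2. The 2 member calls in the lhb/lhcgr mutants became 0 with library size only, 1 with the replicate block, 0 with length correction and 0 without both lhb/lhcgr mutant 3 and 4, and 0 to 2 when 1 library was left out. The call on srebf2 was lost with library size only (adjusted p = 0.0550) and length correction (log2 difference -0.76, adjusted p = 0.0810), and that on hmgcs1 with library size only (0.0634), the block (0.0745) and length correction (-0.52, adjusted p = 0.0953). DESeq2 called 1 member, srebf2, in the fshb/lhcgr mutants. The call on mylipa was also lost with only the 2 groups compared (adjusted p = 0.0510) and without both lhb/lhcgr mutant 3 and 4 (0.125), and that on soat1 was lost only without both lhb/lhcgr mutant 3 and 4.

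Genes called over the table numbered 1426 for lhb/lhcgr mutants against controls. They became 2729 with DESeq2, 817 with the 2 groups alone, 943 with the block, 843 with length correction, 129 without both lhb/lhcgr mutant 3 and 4, and 297 to 1448 with 1 library left out. The 14 calls for fshb/lhcgr mutants against controls became 24 with no filter, 278 with DESeq2, 6 with limma-voom, 8 with the block, 8 with length correction and 1 to 22 with 1 library left out. The 460 calls between the mutants became 1403 with DESeq2, 889 with the 2 groups alone, 27 without both libraries and 104 to 795 with 1 left out. Library size only turned 562 higher and 864 lower calls in the lhb/lhcgr mutants into 848 and 578, with the median of all genes moving from 0.01 to 0.12, and 282 and 178 between the mutants into 200 and 318.

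Signs changed in these cases. In lhb/lhcgr mutants against controls these were cyp51 with limma-voom (-0.086), the block (-0.18) and without both libraries (-0.86), and fdft1 with the block (-0.15) and length correction (-0.077). In fshb/lhcgr mutants against controls hmgcra changed sign with library size only (-0.0093), limma-voom (-0.088) and the block (-0.079). Between the mutants idi1 changed with RLE (0.0028), DESeq2 (0.0029) and the 2 groups alone (0.014), and sqlea went from -1.06 to 0.34 without both libraries. There srebf2 became -0.0078 with upper-quartile scaling, -0.12 with library size only, -0.0028 with no filter, -0.00054 with the stricter filter, -0.034 with limma-voom, -0.046 with the block, -0.093 with length correction and -0.17 without both libraries. With 1 library left out, the lowest and highest log2 differences in lhb/lhcgr mutants were -0.51 and 0.38 for cyp51, -0.18 and 0.34 for fdft1, -0.033 and 0.55 for fdps and -0.31 and 0.051 for lss. In fshb/lhcgr mutants they were -0.41 and 0.17 for fdps, -0.24 and 0.23 for hmgcra and -0.58 and 0.18 for mylipa. Between the mutants they were -0.26 and 0.22 for idi1 (-0.27 without both libraries), -0.16 and 0.60 for ldlra (1.39 without both), -1.47 and -0.057 for sqlea, -0.62 and 0.0011 for lss and -0.22 and 0.17 for srebf2. The cause of these changes was not tested.

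Among same-numbered libraries, 3 of 10 pairs had deviations from their group means that correlated above 0.1. Libraries with different numbers were not compared, so this cannot settle whether the numbers pair the samples. The numbers were not taken to pair the samples, and the replicate block is an alternative. It left 943 calls in the lhb/lhcgr mutants.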
